A study of Homo sapiens with 18 samples.

Results

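The enzymes and transporters of glucose breakdown were followed as a set of 31 genes in LNCaP, an established line of androgen-responsive prostate cancer cells. The genes were chosen by symbol, with earlier results of these data known. They belong to glucose transport, glycolysis, its control, lactate formation and export, and the gate from pyruvate to the mitochondria. The set does not hold every gene of these families. All 31 were found among the 58037 genes of the count table, and 29 had enough counts to be tested, of 15185 tested genes in all. The exceptions were SLC2A10, a glucose transporter, and PDK4, a kinase of pyruvate dehydrogenase. Cells were grown in medium with 9% charcoal-stripped serum, a serum depleted of steroid hormones, and were transfected with a SmartPool, a mix of siRNAs, that was non-targeting (control siRNA) or directed at E2F1 or at E2F2. They then received R1881, a synthetic androgen, at 0.1 nM or its vehicle (ethanol) for 48 h. This gave 6 groups of 3 libraries: control siRNA with vehicle, control siRNA with R1881, and the same pair for E2F1 siRNA and for E2F2 siRNA. All 18 libraries came from transfected cells of 1 line in low-androgen serum, so no group was left untransfected or grown in full serum. The series design places the treatment 42 h after transfection and the sample protocol 48 h. The submitters call the 3 libraries of a group biological replicates without saying what separated them, so p-values measure the spread between these libraries.

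Glycolysis splits glucose into pyruvate and yields ATP without oxygen. Glucose enters through transporters of the SLC2A (GLUT) family and is trapped by hexokinase. Phosphofructokinase then commits it to breakdown under the control of fructose 2,6-bisphosphate, which the PFKFB enzymes make and remove. Lactate dehydrogenase turns pyruvate into lactate, which leaves through monocarboxylate carriers, or pyruvate enters mitochondria through pyruvate dehydrogenase, which the PDK kinases switch off. Several of these genes are known targets of the hypoxia-inducible factor, and androgen is known to raise glucose use in prostate cancer cells. E2F1 and E2F2 are transcription factors best known for turning on genes of DNA synthesis.

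The libraries held 10930204 to 14819879 gene counts. E2F1 stood at a mean of 37.3 CPM (counts scaled to library size with TMM factors) with control siRNA and vehicle against 6.83 with E2F1 siRNA, and at 74.4 against 9.69 CPM with R1881. E2F2 stood at 2.29 against 0.121 CPM with E2F2 siRNA and vehicle, and at 3.43 against 0.195 CPM with R1881. The E2F2 pool also went with less E2F1, at 12.6 CPM with vehicle and 24.1 CPM with R1881, so groups given this pool had both factors low. With the E2F1 pool, E2F2 stood at 1.45 against 3.43 CPM with R1881, without overlap (log2 -1.22 ± 0.38, adjusted p = 0.0586, edgeR), and at 1.87 against 2.29 CPM with vehicle. All 7 luminal prostate markers were present in every library. Of the markers of basal, stromal, immune and endothelial cells, PTPRC, CD3E, PECAM1, CDH5, KRT5, TP63, COL1A2 and DCN were at 0.185 CPM or less, and the highest were VWF (6.23 to 46.0 CPM) and COL1A1 (11.0 to 37.0 CPM). The summed endothelial markers, nearly all VWF, moved with the pools: with vehicle they were at 13.4 to 17.5 CPM with control, 6.23 to 7.77 with E2F1 and 43.1 to 46.0 with E2F2 siRNA, and with R1881 at 16.4 to 18.9, 7.22 to 11.5 and 21.0 to 24.5 CPM. The summed stromal markers, mostly COL1A1, were at 16.5 to 33.5, 11.8 to 14.6 and 26.7 to 37.5 CPM with vehicle and 12.9 to 16.2, 11.2 to 12.0 and 19.1 to 23.8 CPM with R1881. The summed basal markers, mostly KRT14, were at 0.258 CPM or less with vehicle and at 1.29 to 2.70 CPM with R1881. The part of these markers in the results was not tested. In each of the 6 groups, replicate 3 was the library that lay apart: the chi-square of counts divided by its degrees of freedom was 1.84 to 4.43 between replicates 1 and 2 and 8.03 to 93.3 between replicate 3 and either of them. Across the 29 tested members, the deviation of replicate 3 correlated with the GC content of the gene at r of 0.53 to 0.86 in the 6 groups, and its median over the members was 0.01 to 0.28 log2 above the other replicates. These are correlations across genes of single libraries, and their part in the results was not tested. Counts of members are therefore given also with replicates 1 and 2 only and with a block for the replicate number. The fit with replicates 1 and 2 only leaves 2 libraries per group that differed little, and its p-values measure that small spread. Over the comparisons it called 1.65 to 17.7 times as many of all genes as the fit on 18 libraries. Its calls are therefore not added evidence for a member.

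Per kilobase of exon, the members spanned a wide range of levels. The length counts every annotated exon of a gene, whether used in these cells or not. Levels and shares compared between genes are therefore approximate. With control siRNA and vehicle, GAPDH, the enzyme that oxidises glyceraldehyde 3-phosphate, led at 770 ± 170 CPM per kb (mean ± SD, n = 3, as for all group values). TPI1, triose phosphate isomerase, at 250 ± 26.9 CPM per kb and ALDOA, the main aldolase, at 242 ± 60.4 CPM per kb followed and did not differ beyond their spread, and the same was true of ENO1, the main enolase, at 165 ± 26.2 CPM per kb and PKM, pyruvate kinase, at 155 ± 33.3 CPM per kb. The control points lay far lower: HK1, the housekeeping hexokinase, was at 27.6 ± 3.86 CPM per kb, HK2, the inducible hexokinase, at 5.57 ± 0.266 CPM per kb, and PFKFB2, PFKFB3 and PFKFB4 between 2.89 and 4.34 CPM per kb. Among transporters, SLC2A12 stood at 12.7 ± 2.47 CPM per kb and SLC2A1, the widespread GLUT1, at 9.06 ± 2.34 CPM per kb. Their libraries overlapped, at 9.87 to 14.3 and 7.46 to 11.8 CPM per kb, and SLC2A1 was the higher in replicate 3 only. SLC2A3, the high-affinity GLUT3, had no counts. All 31 members together took 0.930% ± 0.148 of the counts in that group. Their summed level was 9054 ± 1426 CPM there and 11162 ± 711 CPM with R1881, against 8238 ± 1209 and 9436 ± 430 CPM with E2F1 siRNA and 8712 ± 1085 and 9455 ± 502 CPM with E2F2 siRNA. In RNA from whole cultures, fewer cells with a transcript and less of it per cell cannot be told apart.

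The first question was how androgen changed these genes with control siRNA. R1881 raised the inducible hexokinase 2.85-fold and lactate dehydrogenase A 2.01-fold, brought the transporter SLC2A3 from no counts to a low level, and raised the monocarboxylate carriers, the PFKFB enzymes and several enzymes of the lower pathway. ENO2, the enolase typical of neurons, PFKM, the muscle phosphofructokinase, and PDK2, a pyruvate dehydrogenase kinase, fell. By edgeR's quasi-likelihood test (adjusted p under 0.05, Benjamini-Hochberg over 15185 genes), 15 of the 29 members rose and 3 fell, where 27.0% of all tested genes were called, 13.8% higher and 13.2% lower. The median log2 fold change was 0.51 over the members and 0.00 over all tested genes, and it is the same with SLC2A3 at its lower bound. With replicates 1 and 2 only, 26 members were called (47.3% of all genes). Fitted on these 6 libraries alone, 11 members and 1842 of 14313 genes were called, and SLC2A12, PGAM1, ENO2, PFKM, PDK1, PDK2 and SLC16A3 missed the threshold (adjusted p 0.0501 to 0.153). The fall of PDK2 was also lost (adjusted p 0.0997 to 0.141) without R1881 replicate 1 or 2 or vehicle replicate 3, the last of which held the most PDK2.

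The same treatment was then compared within each E2F pool. With E2F1 siRNA, 10 members rose and 2 fell with R1881 (19.8% of all genes called, 10.1% higher and 9.75% lower), with a member median of 0.22 and an all-gene median of -0.01 on the log2 scale. With E2F2 siRNA, 12 rose and 2 fell (22.8% of all genes called, 11.8% higher and 11.0% lower), with medians of 0.30 and -0.01. With replicates 1 and 2 only, 21 and 20 members were called (38.3% and 45.5% of all genes). With the block the counts were 23, 15 and 19 for control, E2F1 and E2F2 siRNA, and the calls over all genes grew as well, to 42.1%, 30.7% and 36.2%. The block added HK1, GPI, PFKP, TPI1 and PDK3 to the rises with control siRNA, GPI, PFKP and ENO1 to those with E2F1 siRNA, and SLC2A1, GPI, PFKP and LDHA to those with E2F2 siRNA, where PDK2 was added to the falls. The 3 androgen comparisons share no libraries, but they come from the same fit, and same-numbered libraries deviated together. In each comparison 7 members rose, namely SLC2A3, SLC2A12, HK2, PFKFB2, PFKFB4, PGK1 and SLC16A3, and 2 fell, ENO2 and PFKM. The share of all tested genes called in all 3 comparisons was not computed. In the E2F2 pool the count of members was 8 without R1881 replicate 1 and 9 without vehicle replicate 2 (2721 to 3208 genes called over the fits that left out 1 library). There the call of LDHB was lost without any 1 of the 6 libraries (adjusted p 0.0508 to 0.179), and that of ENO1 without any but vehicle replicate 3 (0.0505 to 0.156). Calls were also lost for PFKFB4 without vehicle replicate 1 or 2 or R1881 replicate 1 or 3 (0.0850 to 0.130), for PDK3 without vehicle replicate 2 or 3 or R1881 replicate 1 or 2 (0.0552 to 0.119), for PGK1 without vehicle replicate 1 or 2 or R1881 replicate 1 (0.0564 to 0.0621), and for ENO2 without vehicle replicate 3 or R1881 replicate 1 or 2 (0.0535 to 0.0696). In the E2F1 pool SLC16A3 lost its call without vehicle replicate 1 or 2 or R1881 replicate 1 (adjusted p 0.0906 to 0.110), and SLC2A1 without vehicle replicate 2 (0.0508).

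**Figure D1:**
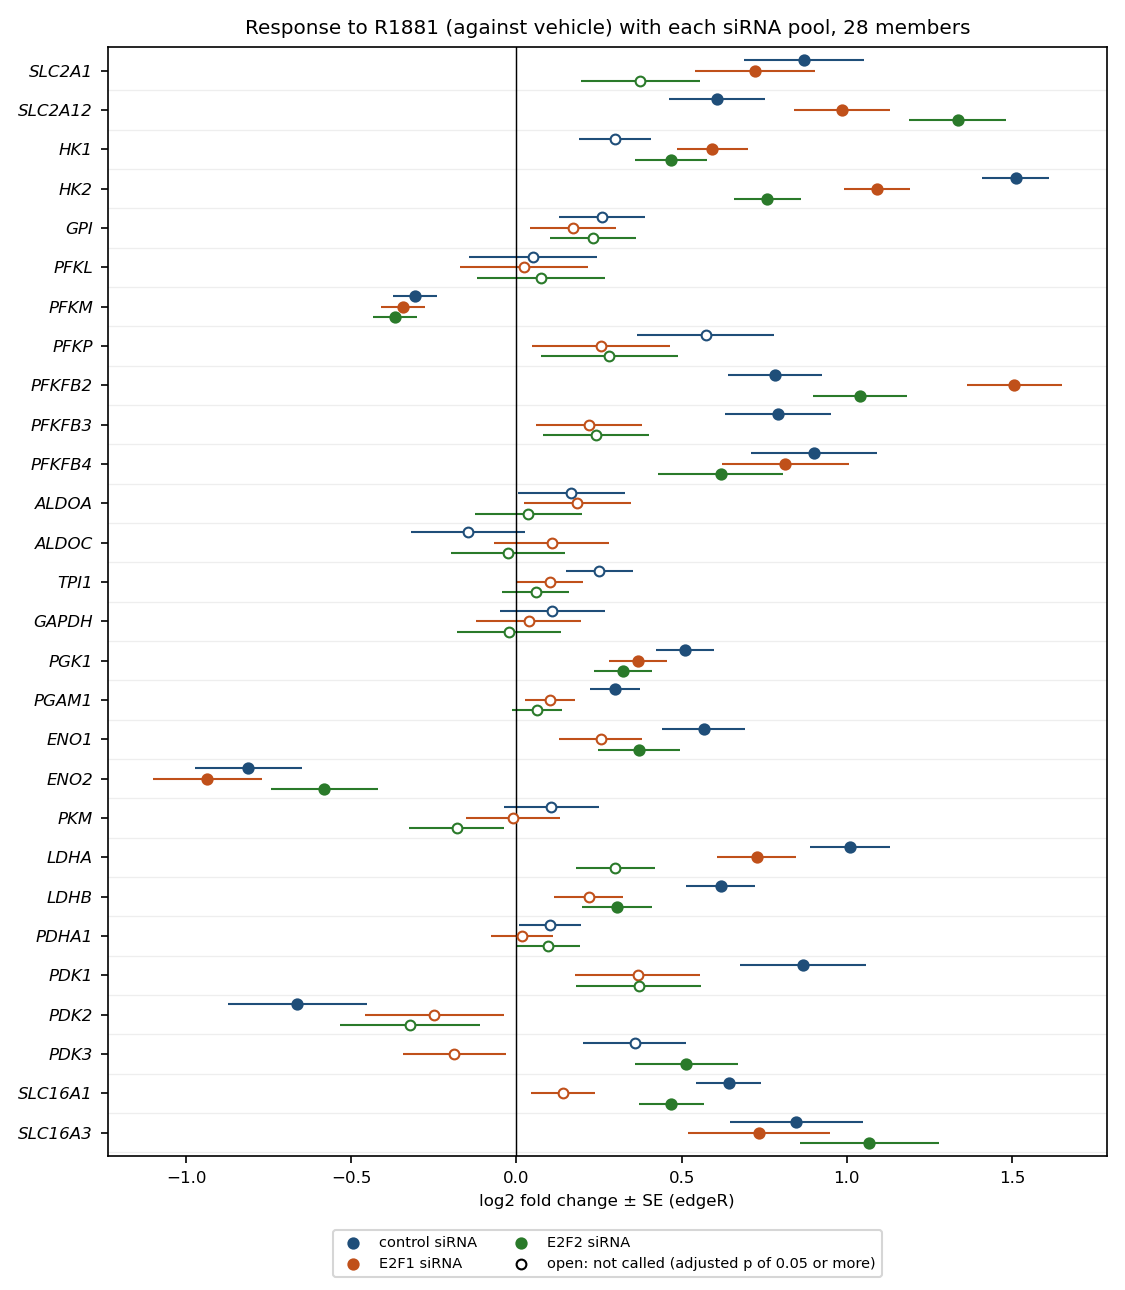
Log2 fold change (x axis, ± SE from edgeR) of R1881 against vehicle for 28 tested members (rows), with control (blue), E2F1 (orange) and E2F2 (green) siRNA. Filled points passed an adjusted p of 0.05. HK2 has values of 1.51, 1.09 and 0.76, and ENO2 and PFKM lie left of 0 with all 3 pools. SLC2A3 is left out because its vehicle groups had no counts.

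Among the transporters, SLC2A3 (GRCh38 chr12:7919230-7936275, minus strand, protein coding) had 0 counts in all 9 vehicle libraries. With R1881 it reached 3.81, 4.21 and 5.10 CPM in replicates 1, 2 and 3 with control siRNA, 4.76, 4.89 and 4.77 CPM with E2F1 siRNA, and 10.1, 10.2 and 5.99 CPM with E2F2 siRNA. Every R1881 library therefore lay above every vehicle library, and replicate 3 with E2F2 siRNA was closer to the other pools than to its own group. With 3 counts over the vehicle group taken as the floor, its 175, 181 and 314 counts were 61.1-, 60.9- and 96.5-fold higher than that floor. The edgeR fit, which compared with 0 counts and not with this floor, called the rise in each pool. SLC2A3 passed the count filter only through its R1881 libraries, so these calls are not added evidence. They are part of the counts of rises given above. The lower 95% limits of the ratio of summed counts, by a Poisson test, were 49.2, 49.0 and 78.0. These limits leave out the spread between libraries. Its near-identical copy SLC2A14 had 0 counts in the vehicle groups and 3, 5 and 4 counts over the R1881 groups, and how reads shared by the copies were assigned is not given in the sources used here. SLC2A10, too low to test, had 0 counts with vehicle and 8, 11 and 9 counts with R1881, 2.79-, 3.70- and 2.77-fold higher than the same floor. Its lower 95% limits were 1.79, 2.53 and 1.82.

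SLC2A12 (GLUT12; chr6:133988697-134052636, minus strand) had 63.7, 62.7 and 44.1 CPM with control siRNA and vehicle and 82.2, 88.9 and 88.7 CPM with R1881. Its values went from 62.2, 66.2 and 48.5 to 125, 118 and 107 CPM with E2F1 siRNA, and from 77.3, 80.6 and 69.3 to 205, 207 and 162 CPM with E2F2 siRNA. In each pool the R1881 libraries all exceeded the vehicle libraries. The log2 rises were 0.61 ± 0.15 (± SE, adjusted p = 0.00519, edgeR), 0.98 ± 0.15 (0.000114) and 1.34 ± 0.15 (4.87e-06). SLC2A1 rose by 0.87 ± 0.18 with control siRNA (adjusted p = 0.0019, edgeR) and by 0.72 ± 0.18 with E2F1 siRNA (0.00936). With E2F2 siRNA its change was 0.37 ± 0.18 and was not called by the fit on all 18 libraries without the block. It was called with the replicate block (adjusted p = 0.0162, edgeR), in a fit on these 6 libraries alone (0.0176) and with replicates 1 and 2 only.

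For hexokinase, HK2 (chr2:74833981-74893359) had 33.0, 35.6 and 32.7 CPM with control siRNA and vehicle and 98.9, 98.7 and 91.2 CPM with R1881. It went from 54.9, 48.6 and 53.9 to 122, 109 and 104 CPM with E2F1 siRNA, and from 41.0, 38.0 and 48.2 to 78.5, 67.1 and 69.7 CPM with E2F2 siRNA. The replicates were tight and no group of vehicle libraries reached its R1881 group. The rises were 2.85-fold (log2 1.51 ± 0.10, adjusted p = 2.56e-08, edgeR), 2.13-fold (1.09 ± 0.10, 6.9e-07) and 1.69-fold (0.76 ± 0.10, 3.49e-05). HK1 changed by 0.30 ± 0.11 on the log2 scale with control siRNA, just outside the threshold (adjusted p = 0.0523, edgeR), and was called with the block (0.00714), with RLE scaling (0.0461), by DESeq2 (0.0351), without R1881 replicate 2 (0.0427) or vehicle replicate 3 (0.00567), and with replicates 1 and 2 only. HK1 rose by 0.59 ± 0.11 with E2F1 siRNA (adjusted p = 0.000768, edgeR) and by 0.47 ± 0.11 with E2F2 siRNA (0.00466).

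At the phosphofructokinase step, PFKFB2 (chr1:207034366-207081024), known as the heart form of the bifunctional regulator, had 48.4, 48.3 and 36.1 CPM with control siRNA and vehicle and 80.5, 78.9 and 69.1 CPM with R1881. It had 45.3, 47.3 and 34.2 CPM with E2F1 siRNA and vehicle and 129, 123 and 108 CPM with R1881, and 49.1, 49.4 and 41.3 against 103, 99.4 and 85.0 CPM with E2F2 siRNA. The vehicle groups covered about the same range in all pools and did not overlap the R1881 groups. The log2 rises were 0.78 ± 0.14 (adjusted p = 0.000608, edgeR), 1.51 ± 0.14 (1.02e-06) and 1.04 ± 0.14 (4.68e-05). PFKFB4 rose by 0.90, 0.81 and 0.62. PFKFB3, the isoform often raised in tumours, rose by 0.79 ± 0.16 with control siRNA (adjusted p = 0.00145, edgeR) and changed by 0.22 and 0.24 with the E2F pools, neither of which passed. The phosphofructokinases themselves behaved otherwise: PFKM fell by 0.31, 0.34 and 0.37 on the log2 scale, PFKL changed by at most 0.07 and was not called here (with replicates 1 and 2 only it was, by 0.25 with control siRNA, adjusted p = 0.00112, edgeR), and PFKP changed by 0.57 ± 0.21 with control siRNA (adjusted p = 0.0514, edgeR). PFKP was called there with the block (0.000179), with RLE scaling (0.0471), with no filter (0.0327), by DESeq2 (0.0306), without vehicle replicate 3 (0.0121) and with replicates 1 and 2 only. The fall of PFKM with control siRNA missed the threshold with no filter on low counts (adjusted p = 0.0712).

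In the lower pathway, PGK1, phosphoglycerate kinase, rose with all pools, by 0.51 ± 0.09, 0.37 ± 0.09 and 0.32 ± 0.09 (log2; adjusted p = 0.000402, 0.00645 and 0.013, edgeR). ENO1 rose by 0.57 ± 0.13 with control siRNA (adjusted p = 0.00296, edgeR) and by 0.37 ± 0.13 with E2F2 siRNA (0.0432). ENO2 fell by 0.81 ± 0.16, 0.94 ± 0.16 and 0.58 ± 0.16 (adjusted p = 0.00137, 0.000555 and 0.015, edgeR). As a share of both enolases per kilobase, ENO2 made up 6.61% ± 0.504 with control siRNA and vehicle and 2.66% ± 0.380 with R1881, and the shares of these libraries did not overlap. PGAM1, phosphoglycerate mutase, rose by 0.30 ± 0.08 with control siRNA (adjusted p = 0.00744, edgeR). ALDOA, ALDOC, TPI1, GAPDH and PKM were called with no pool by the fit on all 18 libraries without the block, and their log2 changes lay between -0.18 and 0.25. With replicates 1 and 2 only, ALDOA (0.31), TPI1 (0.28), GAPDH (0.23) and PKM (0.24) were called higher with control siRNA, and ALDOA (0.33), ALDOC (0.26), TPI1 (0.17) and GAPDH (0.17) with E2F1 siRNA. TPI1 with control siRNA was also called with the block (adjusted p = 0.00409, edgeR) and without vehicle replicate 3 (0.34, adjusted p = 0.0194). In several of them the vehicle libraries of replicate 3 were the highest: ALDOA had 839, 788 and 1220 CPM and GAPDH 2037, 1970 and 2880 CPM with control siRNA and vehicle. GAPDH has 62 named processed pseudogenes in the annotation, PGAM1 has 13, LDHA 6, PKM 5 and TPI1 and ENO1 4 each, so counts of these genes are uncertain where reads could fit more than 1 copy. The counts per gene do not separate the PKM isoforms. In the annotation used here (GENCODE 29), exons of 21 members overlap those of another gene, for 16 of them on the other strand, and whether strand was used in counting is not given in the sources used here.

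Lactate dehydrogenase is built from A and B subunits, of which A favours lactate formation. LDHA (chr11:18394388-18408425) had 552, 507 and 467 CPM with control siRNA and vehicle and 1092, 987 and 990 CPM with R1881. With E2F1 siRNA its values went from 512, 408 and 504 to 893, 736 and 729 CPM, and with E2F2 siRNA from 618, 603 and 757 to 885, 716 and 833 CPM. The groups were apart with control and E2F1 siRNA and overlapped with E2F2 siRNA. LDHA rose by 1.01 ± 0.12 (log2, adjusted p = 1.19e-05, edgeR) with control siRNA and by 0.73 ± 0.12 (0.000311) with E2F1 siRNA. Its change of 0.30 ± 0.12 with E2F2 siRNA was not called by the fit on all 18 libraries without the block. It was called with the block (adjusted p = 0.0175, edgeR), without vehicle replicate 3 (0.0293) and with replicates 1 and 2 only. LDHB (chr12:21635342-21757857, minus strand) had 218, 216 and 158 CPM with control siRNA and vehicle and 302, 315 and 293 CPM with R1881. It had 256, 229 and 230 against 293, 270 and 269 CPM with E2F1 siRNA, and 116, 116 and 121 against 157, 135 and 145 CPM with E2F2 siRNA. No vehicle group reached its R1881 group, but the steps differed in size: LDHB rose by 0.62 ± 0.10 with control siRNA (adjusted p = 0.000341, edgeR) and by 0.30 ± 0.11 with E2F2 siRNA (0.0483), and changed by 0.22 with E2F1 siRNA.

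Of the genes that gate pyruvate into mitochondria, PDHA1, the catalytic subunit of pyruvate dehydrogenase, was between 71.0 and 77.2 CPM in the means of all groups and was called in no comparison. Among its kinases, PDK1 rose by 0.87 ± 0.19 (log2) with control siRNA (adjusted p = 0.00275, edgeR), PDK2 fell by 0.66 ± 0.21 (0.0271), and PDK3 rose by 0.51 ± 0.16 with E2F2 siRNA (0.0249). PDK4 had 1 count in the 18 libraries, which at this depth shows no more than that it was near or below detection. The lactate carrier SLC16A3 (MCT4; chr17:82228397-82261129) had 3.91, 3.80 and 5.14 CPM with control siRNA and vehicle and 8.01, 6.07 and 9.17 CPM with R1881. It had 2.86, 2.65 and 4.08 against 6.24, 4.60 and 5.19 CPM with E2F1 siRNA, and 4.07, 3.11 and 4.13 against 8.96, 6.86 and 7.99 CPM with E2F2 siRNA. The R1881 libraries were the higher ones in each pool. The rises were 0.85 ± 0.20, 0.73 ± 0.21 and 1.07 ± 0.21 (adjusted p = 0.0049, 0.0231 and 0.00125, edgeR). SLC16A1 (MCT1), which carries lactate and pyruvate both ways, rose by 0.64 ± 0.10 with control siRNA (adjusted p = 0.000134, edgeR) and by 0.47 ± 0.10 with E2F2 siRNA (0.00236), and changed by 0.14 with E2F1 siRNA.

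**Figure D2:**
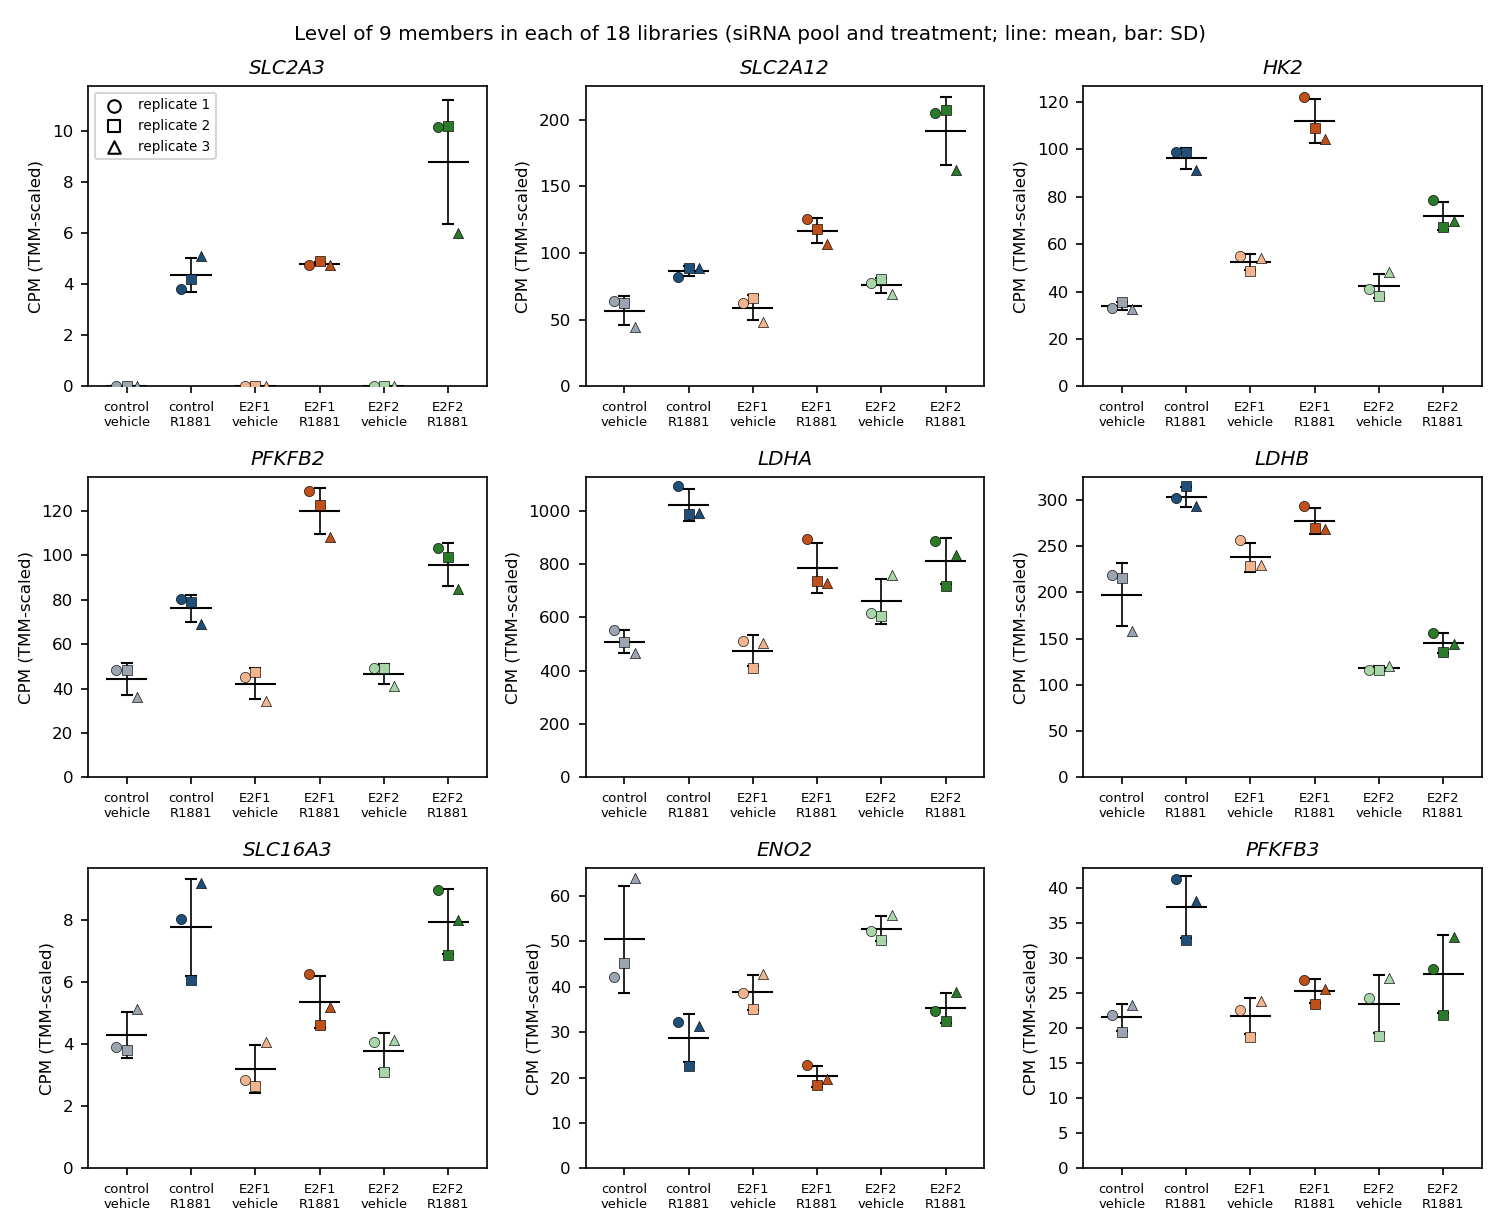
Level in CPM (y axes, from 0, TMM-scaled) of 9 members in each of the 18 libraries, by siRNA pool and treatment (x axes). Symbols mark the replicate, lines the mean and bars the SD of 3 libraries. SLC2A3 is at 0 in all vehicle libraries, HK2 and PFKFB2 are higher with R1881 in every pool, and LDHB is lower with E2F2 siRNA than with the other pools under both treatments.

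The next question was what the E2F pools did at a given treatment, each against control siRNA. The 2 comparisons at a treatment use the same control libraries, and each also shares libraries with the androgen comparison. With R1881 present, the E2F1 pool went with more PFKFB2 and HK1 and less PFKFB3, and the E2F2 pool with 2.09-fold less LDHB, less PFKM, ENO1, HK2, SLC16A1 and LDHA, and more than 2-fold higher SLC2A12 and SLC2A3. With E2F1 siRNA and R1881, 2 of 29 members rose and 1 fell (9.34% of all genes called, 4.42% higher and 4.92% lower, medians -0.24 over the members and -0.01 over all genes, log2). With E2F2 siRNA and R1881, 2 rose and 6 fell (30.3% of all genes called, 15.9% higher and 14.4% lower, medians -0.05 and 0.03), a share of members close to that of all genes. With vehicle, 2 members were called for the E2F1 pool, both higher (5.28% of all genes, 2.36% higher and 2.92% lower), and 6 for the E2F2 pool, 3 higher and 3 lower (27.3% of all genes, 14.2% higher and 13.1% lower).

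These counts moved with the handling of the replicates. Under a block for the replicate number, the E2F1 pool with R1881 had 3 members higher and 12 lower (19.9% of all genes called), the added falls including ENO1 (-0.35), LDHA (-0.38), TPI1 (-0.31), GAPDH (-0.33), PFKP (-0.54) and SLC16A3 (-0.52). The block gave 18 members for the E2F2 pool with R1881, 6 higher and 12 lower (45.6% of all genes), 5 for the E2F1 pool with vehicle (12.7%), and 16 for the E2F2 pool with vehicle (45.3%). With replicates 1 and 2 only, the 4 counts were 19, 18, 7 and 12 (29.5%, 51.4%, 18.8% and 45.7% of all genes), in the same order. GPI, PFKP, TPI1, GAPDH and PKM, which the fit on all 18 libraries without the block called in no comparison, were all below control in both pools with R1881 under the block (adjusted p 0.000372 to 0.0346). Fitted on the groups compared alone, the counts with R1881 were 12 and 16, with 2131 of 14038 and 5568 of 14068 genes called. With vehicle the counts of that fit were 0 and 2, with 17 of 14233 and 1793 of 14295 genes called, while DESeq2 and the fit without a filter each kept HK2 and SLC16A1 for the E2F1 pool. RLE scaling gave 2 higher and 2 lower for the E2F1 pool with R1881 (1429 of 15185 genes called). With no filter on low counts, 4 members were called for the E2F2 pool with vehicle, all lower, where 1671 of 29476 genes were called higher and 1915 lower. In that fit the rises of HK2, LDHA and SLC2A12 missed the threshold (adjusted p 0.0710 to 0.189).

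PFKFB2 was higher with E2F1 siRNA and R1881 (129, 123 and 108 CPM) than with control siRNA and R1881 (80.5, 78.9 and 69.1 CPM), without overlap and by 0.66 ± 0.14 on the log2 scale (adjusted p = 0.00691, edgeR). At vehicle its difference was -0.07 ± 0.14. HK1 was also higher with R1881, at 295 ± 10.8 against 213 ± 26.0 CPM (0.47 ± 0.11, adjusted p = 0.0118, edgeR). PFKFB3 was lower, with 26.9, 23.5 and 25.6 against 41.3, 32.6 and 38.2 CPM (-0.56 ± 0.16, adjusted p = 0.0361, edgeR). The count of 3 fell to 1 without control R1881 replicate 1 or E2F1 R1881 replicate 3 (897 and 915 genes called). HK1 lost its call without either of these or control R1881 replicate 2 (adjusted p 0.0525 to 0.0779), and PFKFB3 without any library but control R1881 replicate 2 (0.0789 to 0.153). With vehicle, HK2 stood at 54.9, 48.6 and 53.9 CPM with E2F1 siRNA, each above the 33.0, 35.6 and 32.7 CPM of control siRNA, a difference of 0.64 ± 0.10 (adjusted p = 0.00117, edgeR). SLC16A1 was likewise higher, at 32.6 ± 0.735 against 21.8 ± 1.21 CPM (0.58 ± 0.10, adjusted p = 0.00196, edgeR). Fitted on these 6 libraries alone, neither passed (adjusted p = 0.162 and 0.186).

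Of the 29 tested members, LDHB had the lowest log2 fold change with E2F2 siRNA and R1881. With R1881 its 157, 135 and 145 CPM lay below the 302, 315 and 293 CPM of control siRNA, a log2 difference of -1.06 ± 0.11 (adjusted p = 1.9e-06, edgeR), and with vehicle its 116, 116 and 121 CPM lay below 218, 216 and 158 CPM (-0.75 ± 0.11, 7.09e-05). LDHA moved the other way with vehicle, where it was higher by 0.38 ± 0.12 (adjusted p = 0.0286, edgeR), and was lower by 0.33 ± 0.12 with R1881 (0.0446). Both LDHA calls were weak: with R1881 the call was lost without any library but E2F2 replicate 1 (adjusted p 0.0634 to 0.184), and with vehicle without control replicate 2 or 3 or E2F2 replicate 3 (0.0606 to 0.139). As a share of both subunits per kilobase, LDHB made up 27.2% ± 1.99 with E2F2 siRNA and vehicle and 27.2% ± 0.879 with R1881, against 44.5% ± 2.89 and 38.2% ± 1.70 with control siRNA and 51.2% ± 2.58 and 42.4% ± 1.59 with E2F1 siRNA. Each library with E2F2 siRNA had a lower LDHB share than each library of the other pools, from 24.9% to 28.6%. The size of these shares rests on annotated exon lengths of 6210 bases for LDHA and 2983 bases for LDHB. The order of the libraries does not.

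**Figure D3:**
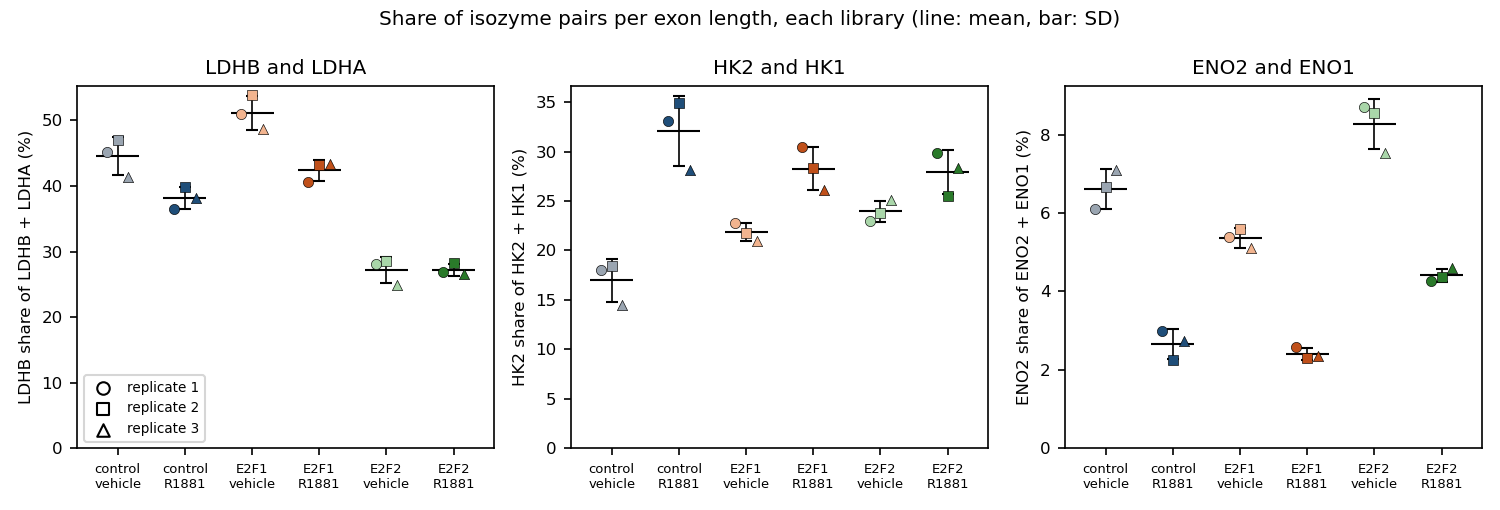
Share (y axes, %, from 0) of LDHB in LDHA and LDHB together, of HK2 in both hexokinases and of ENO2 in both enolases, from CPM per kb of exon, in each library by pool and treatment (x axes). Symbols mark the replicate, lines the mean and bars the SD of 3 libraries. The LDHB share lies between 24.9% and 28.6% in the 6 libraries with E2F2 siRNA and at 36.5% or more in the others, and the ENO2 share is lower with R1881 in each pool.

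The other changes with E2F2 siRNA touched entry and early steps. SLC2A12 with R1881 stood at 205, 207 and 162 CPM against 82.2, 88.9 and 88.7 CPM, 2.21-fold higher (log2 1.14 ± 0.15, adjusted p = 2.27e-05, edgeR), and with vehicle at 77.3, 80.6 and 69.3 against 63.7, 62.7 and 44.1 CPM (0.41 ± 0.15, 0.0454). SLC2A3 with R1881 was 2.01-fold higher (1.01 ± 0.22, adjusted p = 0.00725, edgeR), with 10.1, 10.2 and 5.99 against 3.81, 4.21 and 5.10 CPM. HK2 turned between treatments: with vehicle its 41.0, 38.0 and 48.2 CPM exceeded the 33.0, 35.6 and 32.7 CPM of control siRNA (0.33 ± 0.10, adjusted p = 0.0249, edgeR), and with R1881 its 78.5, 67.1 and 69.7 CPM lay below 98.9, 98.7 and 91.2 CPM (-0.42 ± 0.10, 0.00419). PFKM was lower under both treatments, by 0.38 ± 0.07 and 0.44 ± 0.07 (adjusted p = 0.000531 and 0.00012, edgeR). ENO1 fell by 0.46 ± 0.13 and SLC16A1 by 0.36 ± 0.10 with R1881 (adjusted p = 0.0113 and 0.0107, edgeR), and HK1 by 0.32 ± 0.11 with vehicle (0.0408). With R1881, ENO1 missed the threshold without E2F2 replicate 2 (adjusted p = 0.0522). At vehicle, HK1 and SLC2A12 lost their call without E2F2 replicate 1 or 2 or control replicate 3 (adjusted p 0.0820 to 0.165), HK2 without control replicate 1 or 3 or E2F2 replicate 3 (0.0585 to 0.131), and HK2 and LDHA also with replicates 1 and 2 only (0.0771 and 0.0580). Fitted on these 6 libraries alone, PFKM and LDHB were the only calls left with vehicle.

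**Figure D4:**
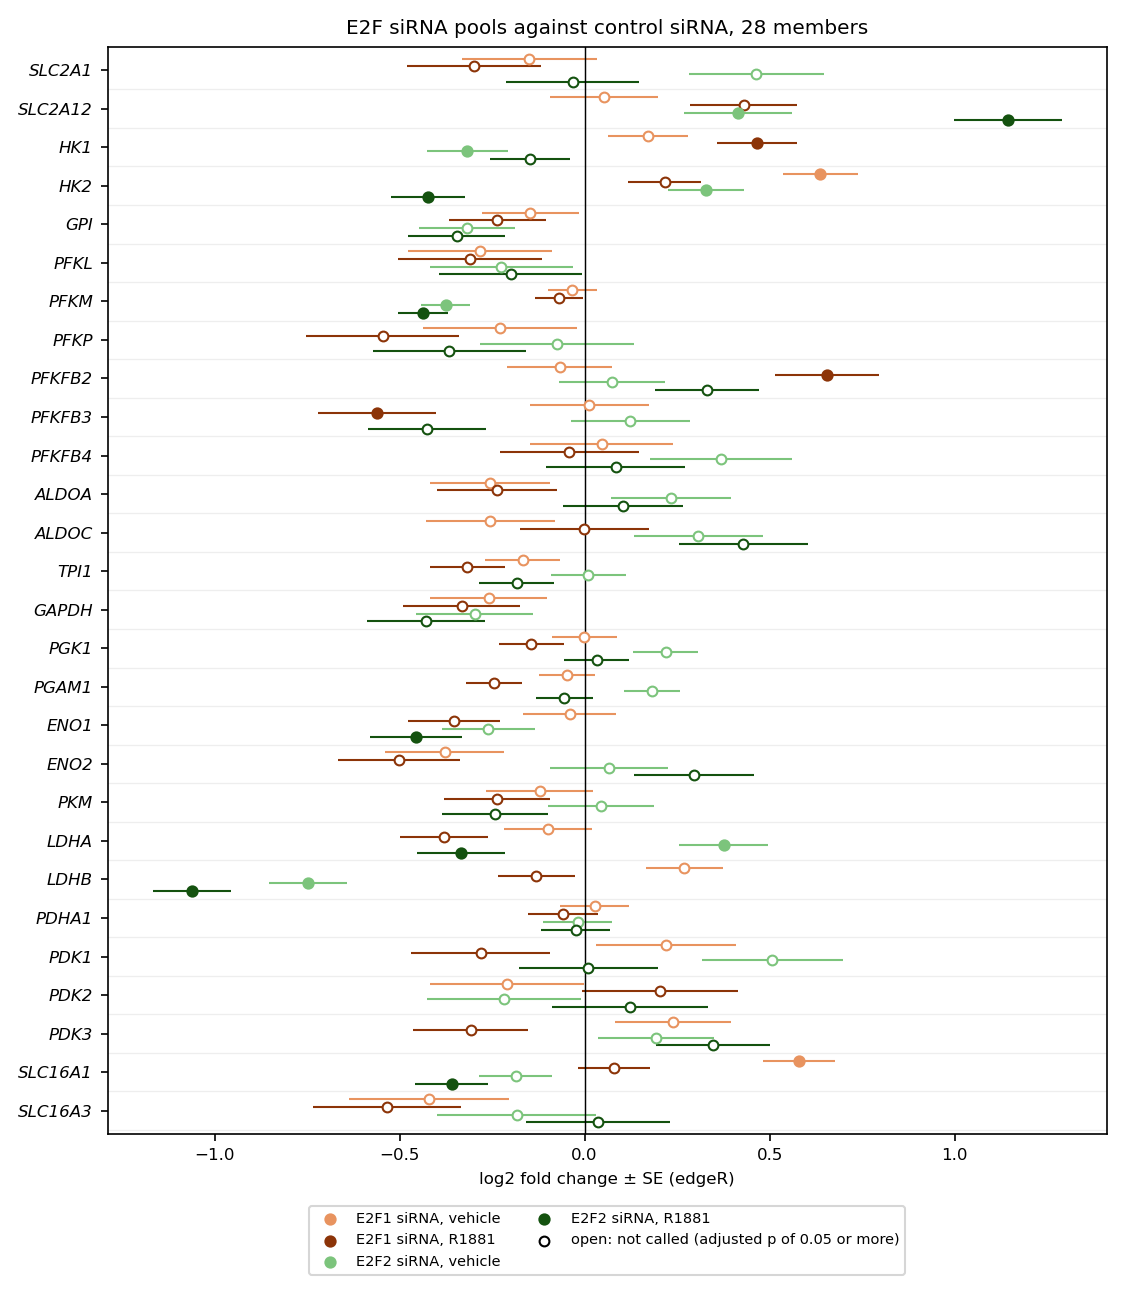
Log2 fold change (x axis, ± SE from edgeR) of the E2F1 pool (orange) and the E2F2 pool (green) against control siRNA for 28 tested members (rows), with vehicle (light) and R1881 (dark). Filled points passed an adjusted p of 0.05. With E2F2 siRNA, LDHB lies at -0.75 and -1.06 and SLC2A12 at 0.41 and 1.14, and HK2 lies right of 0 with vehicle and left of 0 with R1881.

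Set directly against each other, the pools differed in 10 members with R1881, 5 higher and 5 lower with E2F2 than with E2F1 siRNA (24.0% of all genes called, 13.1% higher and 11.0% lower), and in 11 with vehicle, 6 higher and 5 lower (30.6%, 16.1% higher and 14.4% lower). LDHB was lower with E2F2 siRNA by 0.93 ± 0.11 with R1881 and 1.02 ± 0.11 with vehicle (log2; adjusted p = 1.13e-05 and 2.75e-06, edgeR). HK1 was lower by 0.61 and 0.49, HK2 by 0.64 and 0.31, PFKM by 0.37 and 0.34 and SLC16A1 by 0.44 and 0.77. ENO2 was higher by 0.80 and 0.44. With R1881, SLC2A12 (0.71), SLC2A3 (0.87), PDK3 (0.66) and SLC16A3 (0.57, adjusted p = 0.0495, edgeR) were also higher, and with vehicle SLC2A1 (0.61), ALDOC (0.56), ALDOA (0.49), LDHA (0.47) and PGAM1 (0.23). SLC2A3 lost its call without any R1881 library but E2F2 replicate 3, and SLC16A3 without any but E2F1 replicate 1 (adjusted p 0.0516 to 0.180). The count with vehicle was 6 without E2F1 replicate 1 or 2 or E2F2 replicate 3 (3513 to 4346 genes called over the fits that left out 1 library). ALDOA, ALDOC and SLC2A1 were among the calls lost each time (adjusted p 0.0625 to 0.143). HK2 lost its vehicle call without E2F1 replicate 1 or 3 or E2F2 replicate 1 or 2, ENO2 without any but E2F1 replicate 3, and PGAM1 without E2F1 replicate 2 or E2F2 replicate 2 or 3 (0.0761 to 0.143). LDHB, HK1, PFKM and SLC16A1 kept their calls without any 1 library at either treatment. With the block 15 members were called with R1881 and 16 with vehicle (38.5% and 45.5% of all genes), and with replicates 1 and 2 only 17 at each treatment (44.7% and 50.4%).

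The difference in androgen response between pools was tested as an interaction. With the E2F2 pool, 1 member was called (0.889% of all genes, 0.560% with a larger and 0.329% with a smaller response): the HK2 response was smaller by 0.75 ± 0.14 on the log2 scale (95% interval -1.03 to -0.47, adjusted p = 0.0198, edgeR). This call was lost without control vehicle replicate 1, control R1881 replicate 1 or 2, E2F2 R1881 replicate 2 or E2F2 vehicle replicate 3 (adjusted p 0.0529 to 0.0746), with no filter on low counts (0.0735) and in the 4-group fit (0.0721). The next members were LDHA, with a response smaller by 0.71 ± 0.17 (adjusted p = 0.0666, edgeR), and SLC2A12, larger by 0.73 ± 0.21 (0.135). With the block 4 members were called (4.33% of all genes), HK2, LDHA (-0.71), SLC2A12 (0.70) and PFKFB3 (-0.55), and DESeq2 called 3, HK2, LDHA and SLC2A12 (317 of 14007 genes). With the E2F1 pool no member was called by edgeR (0.685% of all genes, 0.375% larger and 0.310% smaller). By that test 6 members had an unadjusted p under 0.05, and the share of all genes below it was not computed. DESeq2 called 2 members, PFKFB2 and SLC16A1 (350 of 12829 genes). The PFKFB2 response was larger by 0.72 ± 0.20 (95% interval 0.33 to 1.11, adjusted p = 0.124, edgeR), and was called without control vehicle replicate 3 (0.0299). With the block 3 were called (4.58% of all genes), PFKFB2 (0.72), PFKFB3 (-0.56) and SLC16A1 (-0.50). With replicates 1 and 2 only, 9 members were called for the E2F1 pool and 8 for the E2F2 pool (12.1% and 11.6% of all genes), the latter including SLC2A12 (0.95), HK2 (-0.64), LDHA (-0.58) and SLC2A1 (-0.55).

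The starts of 28 members were matched to RefSeq promoters (GRCh38.p14, 250 bases before the start). SLC2A3, PFKFB2 and SLC16A1 had no entry. The letters ACGTG, the core bound by the hypoxia-inducible factor, occurred on either strand in 10 of the 28 (35.7%) and in 18.5% of 35116 promoters of that length. The E-box CACGTG, which contains it, occurred in 3 of the 28 (10.7%) and in 6.34% of all. The E2F-type string TTTCCCGC occurred in 2 of the 28, PFKM and PDHA1 (7.14% against 1.39%). The string TTTCGCGC occurred in 1, GAPDH (3.57% against 0.439%). The palindromic androgen response element was in none of the 28 and in 0.00285% of all. The members' promoters were richer in GC, with a median of 69% against 58%, and the shares were not corrected for this. Exon-free stretches of 4 members are shown in lower case with the ACGTG core of either strand, or the E-box around it, in capitals: PGK1, which rose with R1881 in all pools (chrX:78103998-78104173), LDHA and LDHB, the subunits whose shares are given above (chr11:18394313-18394387, and chr12:21657972-21658092 on the minus strand), and GAPDH, the member with the highest level per kilobase (chr12:6535142-6535263).
PGK1: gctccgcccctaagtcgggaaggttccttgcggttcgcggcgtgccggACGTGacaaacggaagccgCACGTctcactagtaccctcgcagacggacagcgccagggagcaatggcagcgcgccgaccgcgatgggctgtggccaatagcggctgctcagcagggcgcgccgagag
LDHA: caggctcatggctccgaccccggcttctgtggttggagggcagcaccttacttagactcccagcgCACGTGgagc
LDHB: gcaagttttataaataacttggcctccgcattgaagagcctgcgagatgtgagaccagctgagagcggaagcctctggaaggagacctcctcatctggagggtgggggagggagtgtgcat
GAPDH: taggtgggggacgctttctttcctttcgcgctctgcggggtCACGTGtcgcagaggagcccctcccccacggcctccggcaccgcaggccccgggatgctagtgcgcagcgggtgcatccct
PGK1 holds 2 cores in this stretch, LDHA and GAPDH 1 each, and LDHB none. The exon-free stretches of the other members, which are not shown, hold no core, but several of these members have no exon-free base in the window. HK2, which rose with R1881 in all pools, is one of these and has 2 cores in its whole window. Cores outside the exon-free stretch also lie in the windows of SLC2A10, GPI, ALDOA, ALDOC, ENO2 and PDK3. SLC2A12, PFKFB4 and SLC16A3, which also rose with R1881 in all pools, have no core in the whole window. A match is a description of the letters in this window only.

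The 6 lists of other genes around the pathway were described in the same fit, without a test of the lists, and the shares of all genes called are those given above for each comparison. Among 24 tested genes of other glycolysis, gluconeogenesis and pyruvate steps, 6 rose and 4 fell with R1881 and control siRNA (median log2 0.09, all genes 0.00). MPC2, a subunit of the mitochondrial pyruvate carrier, rose from 133 to 449 CPM (1.76 ± 0.17, adjusted p = 1.24e-06, edgeR). PDHX, of the pyruvate dehydrogenase complex, rose by 0.56, PDP2, a phosphatase that activates that complex, by 0.53, and ADPGK, an ADP-dependent glucokinase, by 0.42. With R1881, 4 of these 24 rose with E2F1 siRNA (block: 8 rose and 1 fell) and 10 rose and 2 fell with E2F2 siRNA, with list medians of 0.21 and 0.41. PGM1, phosphoglucomutase, was higher with both pools (0.60 and 0.77), MPC1, the other subunit of that carrier, with E2F2 siRNA by 1.09 and LDHD, a D-lactate dehydrogenase, by 1.31. ADPGK (0.54) and PDHX (0.32) were higher with E2F1 siRNA, PDHX losing its call without any library but E2F1 replicate 3 or with no filter (adjusted p up to 0.208).

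Of 12 tested other sugar and monocarboxylate transporters, 1 rose and 2 fell with R1881 and control siRNA (median -0.27, block 1 and 4). SLC5A1, the sodium-coupled glucose transporter, fell from 0.972 to 0.155 CPM (-2.63 ± 0.40, adjusted p = 0.000127, edgeR) and was higher with E2F2 siRNA and R1881, at 1.03 CPM (2.72 ± 0.40, 9.27e-05). SLC37A4, the glucose 6-phosphate transporter, rose by 0.62, and SLC37A1 fell by 0.49, a call lost without R1881 replicate 2 or vehicle replicate 3 or in the 2-group fit (adjusted p up to 0.153). SLC37A1 was higher with E2F1 (0.52) and E2F2 siRNA (1.17) with R1881, the former lost without any library but control replicate 3 or with no filter (up to 0.193). SLC2A4, the insulin-regulated GLUT4, was higher with E2F1 siRNA by 0.90 ± 0.17 (adjusted p = 0.00258, edgeR), and SLC2A13 with E2F2 siRNA by 1.19 ± 0.29 (0.00547), from 0.879 to 2.04 CPM. List medians with R1881 were -0.19 for the E2F1 pool (2 rose) and 0.12 for the E2F2 pool (3 rose and 1 fell).

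In the pentose phosphate pathway (9 tested), RPIA (0.61) and PGD (0.36) rose with R1881 (median 0.23, block 4 rose). With E2F1 siRNA and R1881 edgeR and DESeq2 called none of the 9, and 1 had an unadjusted p under 0.05, a share not computed for all genes (median -0.08). With E2F2 siRNA and R1881, 1 of the 9 was called higher and 2 lower, PGD (-0.28) and TKT, transketolase (-0.40), with a list median of -0.21. TKT lost its call without any 1 of the 6 libraries and PGD without any but control replicate 1 (adjusted p up to 0.136 for TKT and 0.0902 for PGD). Of 14 tested genes of hexosamine and glycogen metabolism, 4 rose with R1881 (median 0.13): UAP1, which makes UDP-N-acetylglucosamine, from 86.3 to 361 CPM (2.06 ± 0.17, adjusted p = 2.25e-07, edgeR), PGM3 (0.96), GNPNAT1 (1.07) and GYG1 (0.56). GYG1 lost its call without R1881 replicate 1 or 2 or vehicle replicate 3 (adjusted p up to 0.218). With R1881, GFPT1, the entry enzyme to hexosamines, was higher with both E2F pools (0.59 and 0.57) and GFPT2 lower with E2F1 siRNA (-1.23, 0.617 against 1.44 CPM), and PYGB, glycogen phosphorylase, was higher with E2F2 siRNA (0.36). With E2F1 siRNA the call of GFPT1 was lost without any 1 library and that of GFPT2 without replicate 1 or 2 of either group (adjusted p up to 0.176 and 0.115). With E2F2 siRNA the call of GFPT1 was lost without E2F2 replicate 1 or 2 or control replicate 3 and that of PYGB without any but control replicate 3 (up to 0.102 and 0.150). The block gave 4 higher and 1 lower with E2F1 siRNA and 3 and 1 with E2F2 siRNA (list median 0.17 for both pools).

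Of 17 tested hypoxia-response genes outside glycolysis, 6 rose and 3 fell with R1881 and control siRNA (median -0.13, block 6 and 8), where the glycolytic members had a median of 0.51. NDRG1, a stress and differentiation gene, rose from 102 to 318 CPM (1.64 ± 0.18, adjusted p = 3.88e-06, edgeR), BNIP3, a mitophagy receptor, by 0.81 and ANKRD37 by 1.21, and EGLN3, an oxygen-sensing prolyl hydroxylase, fell by 0.92. With R1881, 2 of these genes rose and 1 fell with E2F1 siRNA (median -0.02) and 7 rose with E2F2 siRNA (median 0.44, block 11 and 2). ANKRD37 was higher with both pools (1.48 and 0.77), as was P4HA2, a collagen prolyl hydroxylase (0.55 and 0.85, the former lost without E2F1 replicate 1 or control replicate 2, adjusted p up to 0.0900). CA12, a carbonic anhydrase, was higher with E2F2 siRNA (0.67), and EGLN3 was lower with E2F1 siRNA (-0.74). Of 19 tested regulators of glucose metabolism, 3 rose and 4 fell with R1881 (median -0.18, block 4 and 7): CAMKK2, a kinase of AMPK, rose from 108 to 327 CPM (1.59 ± 0.11, adjusted p = 4.88e-08, edgeR), and TXNIP, which curbs glucose uptake, fell from 446 to 188 CPM (-1.25 ± 0.11, 2.93e-07). ARNT, the partner of the hypoxia-inducible factors, fell by 0.44 and EPAS1, encoding one of them, by 1.22. With R1881, MLX, a partner of glucose-sensing factors, was lower with E2F1 siRNA (-0.70), and MYC with E2F2 siRNA (-1.26), where EPAS1 was higher, at 6.00 against 2.12 CPM. That list held 2 falls with E2F1 siRNA (median -0.06, block 4) and 4 rises and 4 falls with E2F2 siRNA (median -0.04).

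With vehicle, the E2F2 pool raised 9 of the 17 hypoxia-response genes (median 0.54) and 10 of the 24 other glycolysis and pyruvate genes (median 0.46) and lowered none of either by this test, where 14.2% of all genes were called higher and 13.1% lower and the median was 0.02. The block gave 11 higher and 1 lower, and 13 and 1 (45.3% of all genes called), and replicates 1 and 2 only gave 11 and 2, and 13 and 0 (45.7%). The E2F1 pool with vehicle raised 2 and 1 of them. With replicates 1 and 2 only, the counts of the 6 lists, in the order described, were 13, 5, 6, 10, 13 and 12 for R1881 with control siRNA (47.3% of all genes called). They were 12, 4, 2, 8, 5 and 7 for the E2F1 pool with R1881 (29.5%), and 18, 7, 4, 6, 13 and 13 for the E2F2 pool with R1881 (51.4%).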

How the data were processed

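RNA was measured in 18 libraries of LNCaP cells, 6 groups of 3, made with the TruSeq RNA Exome kit per the labels' protocols. The authors deposited raw counts per gene. CASAVA 1.8.2, TopHat2 2.0.13, Picard 1.97 and featureCounts (Subread 1.6.4) with GRCh38 are named in the submitters' processing notes. Their settings, strand, multi-mapping and annotation release are not given in the sources used here. Gene positions and exon lengths came from GENCODE 29, matched by gene ID without its version.

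Genes were kept by edgeR's filter at a minimum count of 10 and a minimum total of 15. The 15185 genes kept held 99.9% or more of the counts of every library. Counts were scaled by TMM. Quasi-likelihood fits (edgeR 4.0.16, limma 3.58.1, R 4.3.3) with 6 group means gave 11 comparisons, adjusted by Benjamini-Hochberg over all tested genes, with a threshold of 0.05. SE is the log2 fold change divided by the root of F. The fit was also run on counts simulated with the same dispersion for every gene and no replicate effect. That run cannot show how the fit handles the deviation of replicate 3. Same-numbered libraries deviated together, with correlations of 0.11 to 0.85 over the comparisons, so a fit with the replicate number as a block was made. The labels do not say what a number shares. Alternatives were RLE scaling, no filter, a filter that needs 1 CPM or more in 3 libraries, DESeq2 1.42.0, the groups compared alone, replicates 1 and 2 only, and leaving out each library.

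Members, lists and tests were chosen with earlier results of these data known. Values in every library are given for members called with at least a 2-fold change. From each list, up to 4 called genes with the smallest p were named for R1881 with control siRNA, and up to 3 for each E2F pool with R1881. A few genes that this rule or the marker list covers are not reported here.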

Additional observations from a re-analysis of the deposited data

Results flagged for a closer look

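The androgen response of 3 genes differed between an E2F pool and control siRNA by the interaction test. The HK2 response was smaller with E2F2 siRNA, by -0.75 on the log2 scale (adjusted p = 0.0198, edgeR), with group means going from 33.8 to 96.3 CPM with control siRNA and from 42.4 to 71.8 CPM with E2F2 siRNA. The ANKRD37 response was larger with E2F1 siRNA by 1.51 ± 0.22 (adjusted p = 0.00469, edgeR), with means going from 3.87 to 8.94 CPM with control siRNA and from 3.78 to 24.9 CPM with E2F1 siRNA. ANKRD37 lost this call in no alternative that was run. TXNIP, which fell with R1881, differed with E2F2 siRNA by 0.69 ± 0.15 (adjusted p = 0.0374, edgeR), with means going from 446 to 188 CPM with control siRNA and from 434 to 296 CPM with E2F2 siRNA. The TXNIP call was lost in 12 of 19 alternatives, with adjusted p up to 0.109, among them no filter on low counts, the 4 groups alone, and leaving out any 1 of 10 of the 12 libraries (all but control R1881 replicate 2 and control vehicle replicate 3).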

How the results depend on the processing

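Of the 85 member calls, 51 held in every alternative run and none reversed. The block lost none of them, nor did RLE scaling, the CPM filter or DESeq2. No filter on low counts lost 10, the groups compared alone 20 and replicates 1 and 2 only 2. Of 64 calls of other named genes, 49 held throughout and none reversed. Counts of members are given in the order E2F1 pool with R1881, E2F2 pool with R1881, E2F1 pool with vehicle and E2F2 pool with vehicle, each against control. The replicate block gave 15, 18, 5 and 16, the groups compared alone 12, 16, 0 and 2, and replicates 1 and 2 only 19, 18, 7 and 12, where the fit above gave 3, 8, 2 and 6. DESeq2 gave 7 for the E2F1 pool with R1881 (1696 of 15185 genes). For the responses that differed from control with the E2F1 and E2F2 pools, the block gave 3 and 4, DESeq2 2 and 3, and replicates 1 and 2 only 9 and 8. For the E2F2 pool, no filter and the groups alone each gave 0. For R1881 with control siRNA the groups alone gave 11, and replicates 1 and 2 gave 21 for R1881 with E2F1 siRNA. Between the E2F pools, replicates 1 and 2 gave 17 at each treatment, and the groups alone 6 with vehicle (3868 of 14261 genes called). Leaving out 1 library gave 8 to 12 for R1881 with E2F2 siRNA, 1 to 3 for the E2F1 pool with R1881, 6 to 10 between the pools with vehicle, and 0 to 1 and 0 to 2 for the responses with the E2F1 and E2F2 pools. Over all genes the same fits called 2721 to 3208, 872 to 1075, 3513 to 4346, 29 to 250 and 53 to 208. The causes were not tested.

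Over all genes, R1881 with control, E2F1 and E2F2 siRNA called 4105, 3009 and 3465 genes, against 6392, 4661 and 5501 with the block and 7205, 5829 and 6927 with replicates 1 and 2 only, and 1842 with control siRNA for the groups alone. The E2F1 and E2F2 pools with R1881 called 1418 and 4601, against 3022 and 6919 with the block and 4487 and 7828 with replicates 1 and 2, while the former gave 903 with no filter and 2131 for the groups alone. With vehicle they called 802 and 4145, against 1934 and 6873 with the block, 2864 and 6962 with replicates 1 and 2, 17 and 1793 for the groups alone, and 462 with no filter for the E2F1 pool. Between the pools, 3648 with R1881 and 4641 with vehicle became 6810 and 7670 with replicates 1 and 2, and the former 5848 with the block. The responses called 104 and 135, against 22 and 60 with no filter, 350 and 317 by DESeq2, 696 and 658 with the block, 21 and 40 for the groups alone, and 1844 and 1767 with replicates 1 and 2. Depth limited SLC2A10 and PDK4, which were not tested.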
